A study of Mus musculus with 30 samples.

Results

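The genes described here are 36 listed genes of glucose use and of the response to low oxygen, of which 33 were measured among the 18194 genes of the arrays. They were taken by name from a list, and the brightest probe set that names a gene alone stood for it. The list holds 22 glycolysis genes (glucose transporters, enzymes, lactate enzymes and transporters, and regulatory kinases), of which 20 were measured, and 14 genes of the hypoxia-inducible factor (HIF) pathway, of which 13 were measured. Gpi1 and Eno1 had no probe set in the annotation used here, and Bnip3l had only 3 probe sets that it shares with a pseudogene, so these 3 genes carry no value. The samples were mouse embryonic stem (ES) cells, profiled on 30 Affymetrix arrays with 1 array a sample. The groups were Jmj-null ES cells on days 0, 2, 4, 6 and 8 (3, 5, 5, 5 and 2 arrays) and Jmj Fl/Fl cells, which the labels call wild type, on the same days (2 arrays a day). Jmj, now named Jarid2, encodes a partner of Polycomb repressive complex 2, and Fl/Fl denotes floxed alleles that are still intact. Day 0 is the undifferentiated state, and differentiation was started by withdrawal of leukaemia inhibitory factor (LIF), the cytokine that keeps mouse ES cells undifferentiated. The labels do not say how the null cells were derived, or how many clones or cultures the arrays stand for, so the p-values below measure only the spread between these samples.

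Glycolysis splits glucose into pyruvate, which enters the mitochondria through pyruvate dehydrogenase or is reduced to lactate and exported. Pluripotent stem cells are known for a high rate of glycolysis. When oxygen is plentiful, prolyl hydroxylases of the Egln family mark the alpha subunits of HIF for degradation, and when oxygen is scarce the stabilised HIF raises the transcription of glycolysis genes and of targets such as Vegfa, Bnip3 and Egln3 itself. HIF binds a core motif with the letters ACGTG or GCGTG.

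The promoters of 6 members are shown: Bnip3, Egln3, Slc16a3, Pfkp and Ankrd37, which differed by more than 2-fold between the Fl/Fl arrays of day 0, and Ldha, which did not. They were chosen after values and matches were seen, to show windows with several matches of ACGTG and with none. Each line gives the 250 bases before the annotated start, 5′ to 3′ on the gene's strand, from RefSeq (assembly GRCm38.p6), with every ACGTG of either strand (CACGT when read on this strand) in capitals. Bnip3 lies at chr7:138909507-138909756 (minus strand), Egln3 at chr12:54203875-54204124 (minus), Ankrd37 at chr8:45999851-46000100 (minus), Slc16a3 at chr11:120948817-120949066 (plus), Pfkp at chr13:6648772-6649021 (minus) and Ldha, at the upstream of its starts, at chr7:46845554-46845803 (plus).
Bnip3: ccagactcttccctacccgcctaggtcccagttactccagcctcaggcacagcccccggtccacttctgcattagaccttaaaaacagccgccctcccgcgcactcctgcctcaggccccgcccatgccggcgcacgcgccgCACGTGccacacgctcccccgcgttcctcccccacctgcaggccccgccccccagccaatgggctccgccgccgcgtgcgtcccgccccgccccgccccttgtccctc
Egln3: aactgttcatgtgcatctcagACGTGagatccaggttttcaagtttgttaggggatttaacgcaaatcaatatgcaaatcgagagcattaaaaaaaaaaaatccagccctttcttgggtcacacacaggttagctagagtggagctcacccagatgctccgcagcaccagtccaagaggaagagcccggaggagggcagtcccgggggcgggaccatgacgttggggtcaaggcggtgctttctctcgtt
Ankrd37: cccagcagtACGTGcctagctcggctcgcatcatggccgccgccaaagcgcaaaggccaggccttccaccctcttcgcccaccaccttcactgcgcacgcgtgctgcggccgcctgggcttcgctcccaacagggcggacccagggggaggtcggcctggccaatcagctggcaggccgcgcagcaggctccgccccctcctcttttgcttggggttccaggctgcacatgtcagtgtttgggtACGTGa
Slc16a3: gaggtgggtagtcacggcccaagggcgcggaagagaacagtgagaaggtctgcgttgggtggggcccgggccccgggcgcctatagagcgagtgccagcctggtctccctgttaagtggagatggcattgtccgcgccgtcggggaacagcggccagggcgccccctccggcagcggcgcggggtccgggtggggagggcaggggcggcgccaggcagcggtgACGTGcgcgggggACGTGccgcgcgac
Pfkp: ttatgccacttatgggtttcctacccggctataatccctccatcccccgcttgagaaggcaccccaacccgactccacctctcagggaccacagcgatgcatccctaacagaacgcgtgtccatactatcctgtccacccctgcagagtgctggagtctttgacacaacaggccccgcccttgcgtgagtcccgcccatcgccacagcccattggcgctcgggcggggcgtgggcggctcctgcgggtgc
Ldha: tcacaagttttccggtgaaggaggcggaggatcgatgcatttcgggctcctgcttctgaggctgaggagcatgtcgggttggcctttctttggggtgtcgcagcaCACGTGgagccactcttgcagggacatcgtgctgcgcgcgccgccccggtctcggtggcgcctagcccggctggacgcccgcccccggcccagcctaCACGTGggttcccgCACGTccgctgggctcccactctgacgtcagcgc
Counting overlapping matches as 1, the window held 1 match in Bnip3, 1 in Egln3, 2 in Ankrd37, 2 in Slc16a3, 0 in Pfkp and 3 in Ldha. The other Ldha start, which is not shown, held 0. Aldoc and Pdk1, which also differed by more than 2-fold, held 0 ACGTG as well. GCGTG had 3 matches in Bnip3, 1 in Ankrd37, 3 in Pfkp and 0 in Egln3, Slc16a3 and the Ldha window shown. It had 1 in either Aldoc start, and 1 and 0 in the Pdk1 starts. Its share over all genes is not given here. Of the 36 members, 32 had a promoter in the table, and 20 of these (62.5%) held ACGTG in at least 1 start: 10 of 21 glycolysis genes (47.6%) and 10 of 11 HIF genes (90.9%). The same windows held it in 5444 of 32851 promoters (16.6%) and 4998 of 27025 genes (18.5%). A match of these letters describes the sequence and does not show a binding site.

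The deposited values are intensities on a linear scale, and differences are given as log2 changes of intensity + 4 with their standard error (SE). Array means lay between 331.8 and 363.6 and array medians at 10 or 11, so a value near 10 is close to the floor. The ES cell label fitted the start of the courses: the summed intensity of 8 pluripotency markers was 31210 to 31767 on the 3 null arrays of day 0 and 27125 and 34322 on the 2 Fl/Fl arrays. Jarid2 was not lower on the null arrays, with 2872 to 4082 on day 0 against 3335 and 3340 in Fl/Fl, and 1257 to 1470 on day 4 against 709 and 710; where its probe set lies relative to the deletion is not known here, so the genotypes rest on the labels. The null arrays fell into separate sets by Eif2s3y, a Y-linked gene: 11 arrays lay between 594 and 981 and 9 arrays below 500, with the 10 Fl/Fl arrays at 130 to 234. The 9 were themselves uneven, with 4 at 11 to 16 and 5 at 217 to 365, and the pairs below 500 of days 2, 4, 6 and 8 held 1 of each. These sets were formed after values were seen and are no groups of the study. The ratio of 3′ to 5′ actin probe sets, a sign of RNA quality, was 1.54 to 2.02 on the 9 null arrays below 500, 1.29 to 1.43 on the 11 null arrays above 500, and 1.48 to 2.04 on the Fl/Fl arrays.

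The listed genes differed strongly within groups as well as between them. In Fl/Fl cells of day 0, 15 of 33 members were at least 2-fold higher on replicate 1 than on replicate 2, against 0.857% of all genes, and 1, Epas1, was at least 2-fold lower, against 1.72% of all genes. The 15 included 8 of the 9 measured HIF targets, 2 of 4 HIF subunits and oxygen sensors (Egln1 and Egln3), and 5 of 20 glycolysis genes (Pfkl, Pfkp, Aldoc, Slc16a3 and Pdk1). Bnip3, a receptor for the removal of mitochondria, had 4894 on replicate 1 and 604 on replicate 2, an 8.06-fold difference. Egln3, an oxygen sensor that is itself a HIF target, had 904 and 114 (7.69-fold), and Slc16a3, the lactate exporter of glycolytic cells, had 1557 and 385 (4.01-fold). Ankrd37, Ndrg1 and Vegfa had 360 and 125, 266 and 84, and 80 and 26. The enzymes Ldha and Pkm differed less, with 19444 and 15233 and with 20775 and 16954, and so did the transporter Slc2a1, with 9172 and 8891. Of 32 other HIF targets on a separate list, 5 were at least 2-fold higher on replicate 1, and of 17 genes of the tricarboxylic acid cycle, 0 were. On the other Fl/Fl days, 0 of 33 members were 2-fold higher on replicate 1, against 0.159%, 0.0824%, 0.242% and 0.539% of all genes on days 2, 4, 6 and 8. On those days 1 was 2-fold lower (Eno2 on day 8), against 0.561%, 0.352%, 0.308% and 0.517%. Replicate 1 of day 0 also had a lower actin ratio (1.52 against 2.04), a higher pluripotency sum (34322 against 27125) and a higher sum of 9 measured fibroblast markers (505 against 228); the part of these in the difference was not tested.

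The null arrays of days 4 and 6 parted in many of the listed genes. On day 4, 25 of 33 members were higher on both arrays with Eif2s3y below 500 than on all 3 arrays above 500, and 1 was lower, against 17.5% and 14.2% of all genes. Bnip3 on that day had 2165 and 2036 on the arrays below 500, against 313, 374 and 396 on the arrays above 500. Ldha, the enzyme that makes lactate, had 22526 and 20469, against 11777, 11399 and 11532. Vegfa, a growth factor for blood vessels, had 71 and 75, against 9, 13 and 18. All 3 genes left a wide gap between the sets. Epas1, the alpha subunit also called HIF2A, went the other way with 11 and 9, against 46, 36 and 29.

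On day 6, 19 of 33 members were higher on the arrays below 500 and 3 were lower, against 17.0% and 10.5% of all genes. Bnip3 had 685 and 468, against 16, 34 and 56, and Ldha 20331 and 18220, against 8766, 9471 and 9144. Slc16a1, another lactate transporter, had 3837 and 5689, against 1319, 1561 and 1729. Pfkfb3 was among the 3 lower genes, with 208 and 366, against 681, 558 and 552. On day 2 the sets were less far apart in these genes: 6 members were higher and 4 lower, against 20.6% and 6.9% of all genes. Marker sums moved with the sets on day 6, where the mesoderm sum was 15273 and 9129 below 500 against 3273 to 4205 above it, and the endoderm sum 664 and 993 against 84 to 109; on day 4 the mesoderm sum was 511 and 822 against 240 to 350, and the endoderm sum 47 and 54 against 44 to 51. Their part in the split, and that of the actin ratio, was not tested.

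The 2 null arrays of day 8 were unlike each other as well. Replicate 1 was at least 2-fold above replicate 2 in 9 members and at least 2-fold below it in 5, against 5.08% and 8.8% of all genes. Slc16a3 had 1650 and 179, Slc16a1 4312 and 607, and Ldha 15448 and 5451, whereas Pfkfb3 had 323 and 928 and Hk1 67 and 370. Eif2s3y was 365 on replicate 1 and 11 on replicate 2. The pluripotency sum was 10567 and 1518, and the mesoderm sum 9326 and 485. The trophoblast sum was 3668 and 552, and the neuroectoderm sum 582 and 1456. Tdgf1, with 9147 and 539, made up most of the gap in the pluripotency sum. Eomes, counted in both the mesoderm and the trophoblast sum, had 3450 and 177 and made up most of the gap in the trophoblast sum. The part of these markers in the difference was not tested. Results that rest on 1 of these arrays are given with and without it below.

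**Figure D1:**
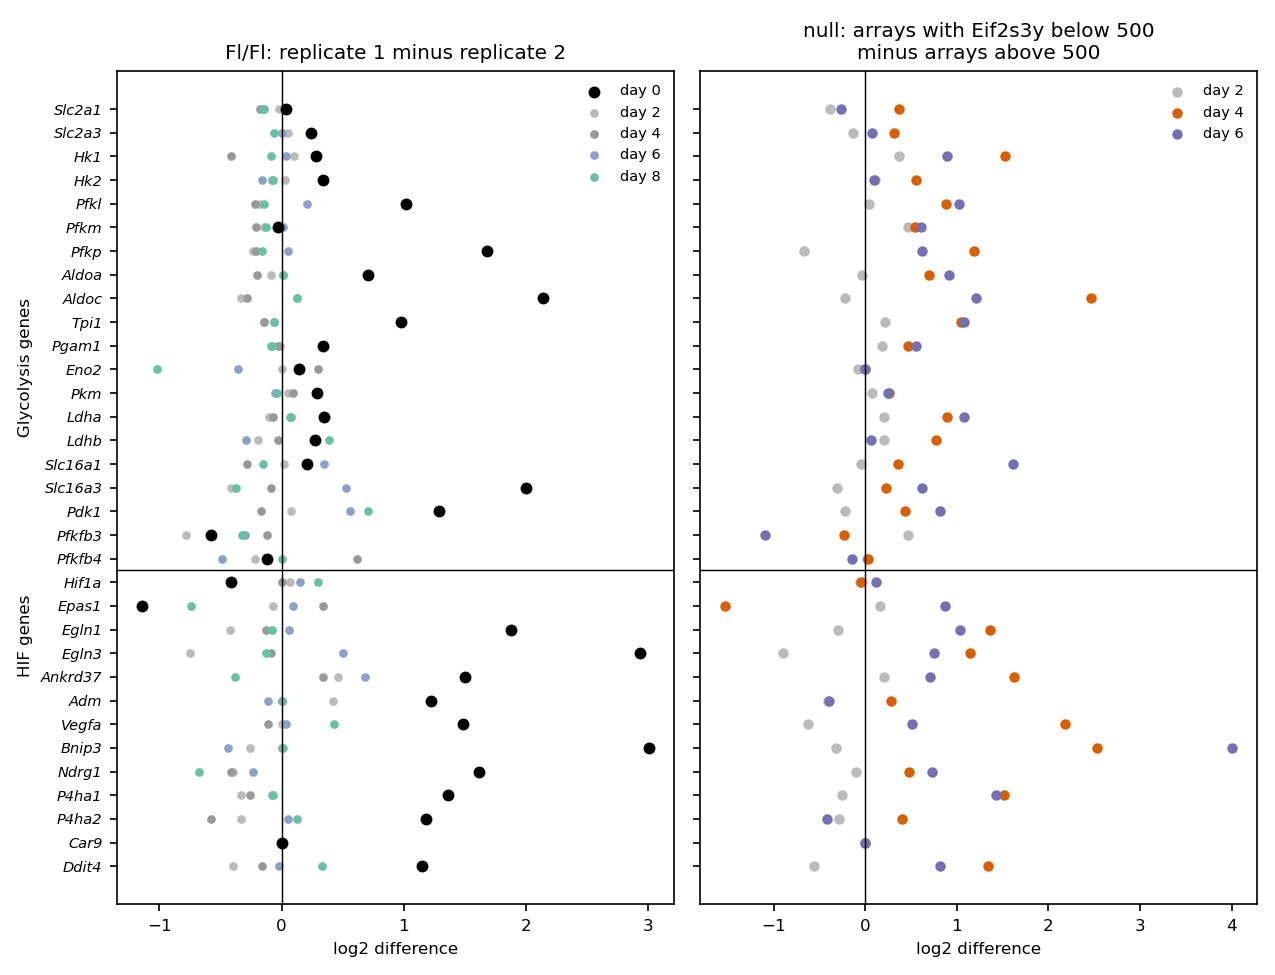
Differences within groups for the 33 measured members, on the log2(intensity + 4) scale. Left, Fl/Fl replicate 1 minus replicate 2 on each day: the day 0 points (black) of most HIF genes lie right of 1, while those of the other days lie near 0. Right, null arrays with Eif2s3y below 500 minus null arrays above 500 (2 against 3 arrays a day, means of log2 values): most points of days 4 and 6 lie right of 0, up to 4.00 for Bnip3 on day 6.

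Ranges over all 30 arrays differed between genes of the list. The core enzymes Pgam1 and Pkm kept within 1.80-fold and 1.90-fold of their lowest value, at 9276 to 16697 and 10960 to 20775. Bnip3 ran from 16 to 4894, Egln3 from 7 to 904, Epas1 from 9 to 681 and Pfkp, the platelet-type phosphofructokinase, from 34 to 1595. Car9, a carbonic anhydrase often used as a hypoxia marker, read 5 on all 30 arrays, and Pfkfb4 read 7 to 17, so neither rose clearly above the floor at any time. Adm, which encodes the peptide adrenomedullin, stayed between 8 and 31.

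**Figure D2:**
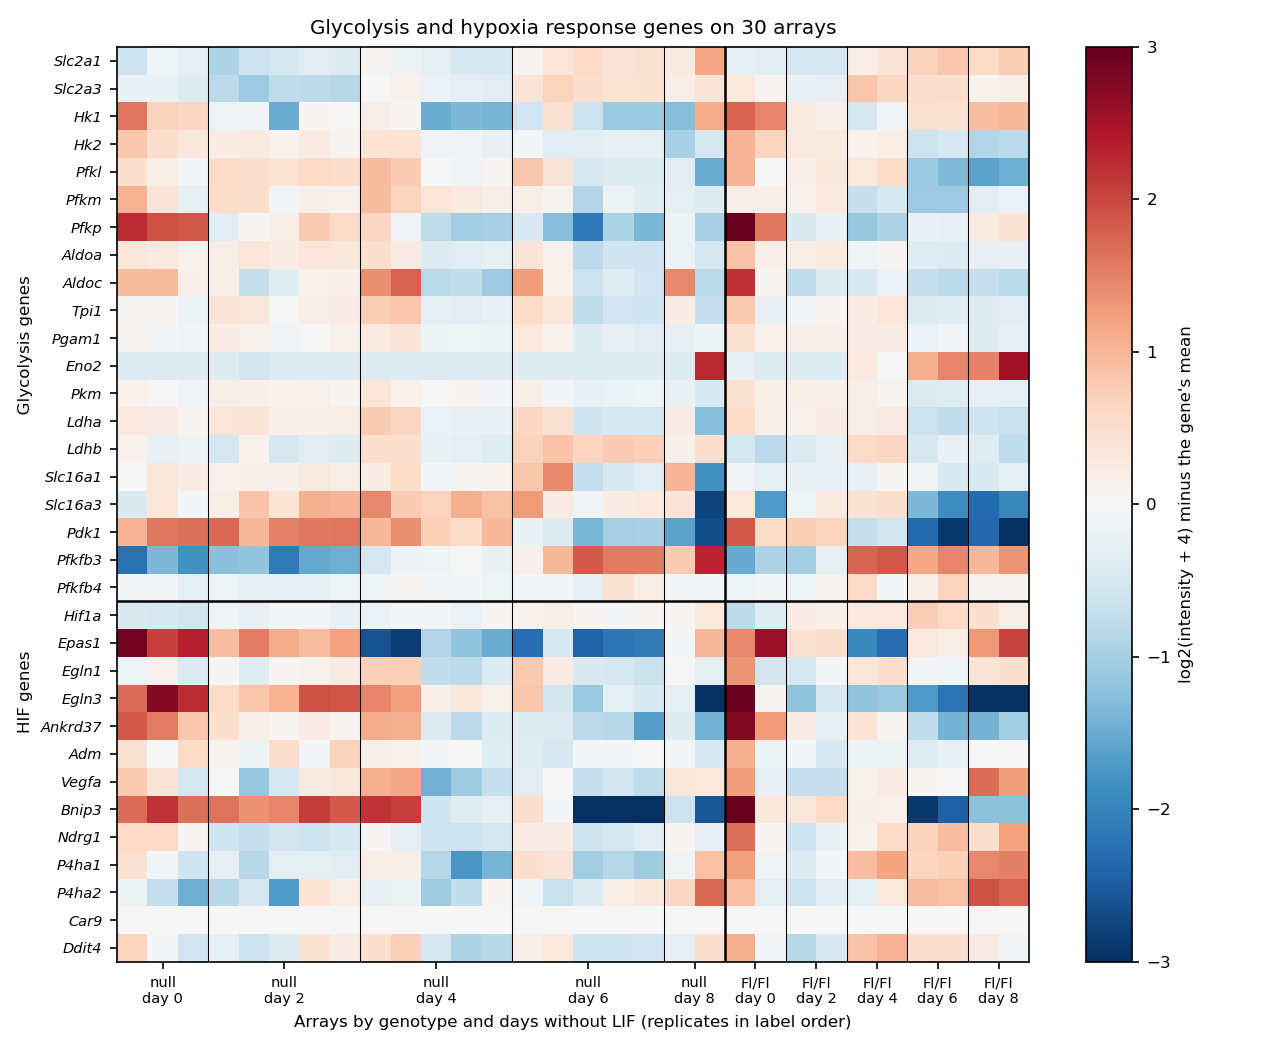
Each row is a member and each column an array, null left and Fl/Fl right, with days 0 to 8 in order within each genotype. Colour gives log2(intensity + 4) minus the gene's mean over the 30 arrays (blue low, red high, cut at -3 and 3). Pdk1, Egln3 and Bnip3 pale or turn blue towards day 8 in both genotypes, Pfkfb3 turns red, and the first Fl/Fl column of day 0 stands out in the HIF genes.

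The time courses asked how these genes changed once LIF was withdrawn. In Fl/Fl cells, glycolysis genes split: the glucose transporter Slc2a1 and the regulator Pfkfb3 rose by day 8, while hexokinase 2, the phosphofructokinases Pfkl and Pfkp, Pgam1, Pkm and Pdk1 fell. By limma's moderated test with Benjamini-Hochberg adjustment over all genes (threshold 0.05), 13 of 33 members passed between day 8 and day 0, 5 upward and 8 downward, against 33.6% of all genes (15% upward, 18.6% downward). Of the 20 glycolysis genes 9 passed (3 up, 6 down) and of the 13 HIF genes 4 passed (2 up, 2 down). The median log2 change was -0.64 for the glycolysis genes and 0.00 for the HIF genes, against -0.05 for all genes. All 8 pluripotency markers fell over the same interval and 6 of 9 measured fibroblast markers rose, with the fibroblast sum at 11257 and 14996 on day 8 against 505 and 228 on day 0; the measured fibroblast markers Thy1 and Dcn stayed at 8 to 15 on day 8. In bulk RNA, fewer cells of a type and less RNA per cell cannot be told apart, and the part of the changing cell types in these courses was not tested.

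Pdk1, the kinase that switches off pyruvate dehydrogenase, had 124 and 74 in Fl/Fl cells of day 8, against 2358 and 961 on day 0. The days did not overlap, although the day 0 arrays differed from each other by more than 2-fold. The fall was -3.92 ± 0.42 (log2, SE; adjusted p = 3.82e-07). Egln3 reached 7 and 8, against 904 and 114, a change of -4.83 ± 0.84 (adjusted p = 0.000105). Ankrd37, a HIF target with ankyrin repeats, had 16 and 22, against 360 and 125 (-3.25 ± 0.59, adjusted p = 0.000171). All 3 genes were lower on both day 8 arrays than on either day 0 array, and Egln3 ended close to the floor, where the scale understates a change. Hk2, which traps glucose in the cell, had 947 and 995, against 3553 and 2803, and fell by 1.70 ± 0.19 (adjusted p = 6.04e-07).

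Pfkfb3, which makes the activator of phosphofructokinase, had 374 and 468 in Fl/Fl cells of day 8, against 63 and 96 on day 0. It had already risen on day 4, to 634 and 691, and the log2 changes were 3.02 ± 0.47 on day 4 (adjusted p = 0.000106) and 2.37 ± 0.47 on day 8 (adjusted p = 0.000453). Eno2, the neuronal enolase, left the floor late, with 24 and 32 on day 6 and 33 and 71 on day 8, against 7 and 6 on day 0 (day 8 change 2.33 ± 0.45, adjusted p = 0.000332). Hif1a, the alpha subunit HIF1A, had 2441 and 1982 on day 8, against 1010 and 1343 on day 0, a rise of 0.92 ± 0.12 (adjusted p = 3.54e-06). P4ha2, a subunit of the enzyme that hydroxylates collagen prolines, had 446 and 408, against 223 and 96 (1.52 ± 0.57, adjusted p = 0.0465), a call that was lost in 18 of the fits that left out 1 array.

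On day 4, 10 of 33 members had already changed in Fl/Fl cells, 4 upward (Slc2a3, Ldhb, Pfkfb3 and Hif1a) and 6 downward (Hk2, Pfkp, Pdk1, Epas1, Egln3 and Ankrd37), against 18.5% of all genes (8.01% upward, 10.5% downward). Ldhb, the lactate dehydrogenase subunit that favours pyruvate, had 2876 and 2936 on day 4, against 1330 and 1102 on day 0, and was back at 1481 and 1126 on day 8. Epas1 made a deep dip, with 248 and 552 on day 0, 122 and 128 on day 2, 20 and 15 on day 4, 109 and 102 on day 6 and 222 and 374 on day 8. Its day 4 fall was -4.13 ± 0.61 (adjusted p = 5.87e-05), and its day 8 change of -0.36 did not pass (adjusted p = 0.774).

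Replicate 1 of day 0 bears on these falls. The share of all genes in the fits without 1 array is not given here, so the counts of those fits describe the calls of these members only. Without it, 6 members passed on day 4 (4 up, 2 down) and 11 on day 8 (5 up, 6 down). Ankrd37, Egln3, Hk2 and Pdk1 were lost on day 4, where their adjusted p then reached 0.406, 0.454, 0.143 and 0.107, and Pfkp and Pgam1 were lost on day 8 (0.155 and 0.179). Without Fl/Fl day 4 replicate 1, 6 members passed on day 4 as well, with Ankrd37, Egln3, Hk2 and Slc2a3 lost, and Pgam1 was also lost without either day 8 array. The falls of Pdk1, Egln3, Ankrd37 and Hk2 to day 8, and the rises of Pfkfb3, Hif1a and Eno2, passed whichever array was left out.

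In null cells 15 of 33 members passed between day 8 and day 0, 6 upward and 9 downward, against 33.4% of all genes (14.9% upward, 18.5% downward). Both day 8 arrays had Eif2s3y below 500, while 2 of the 3 day 0 arrays lay above it. The change over time is therefore mixed with any difference between these sets. Of 20 glycolysis genes 9 passed (4 up, 5 down; median -0.47) and of 13 HIF genes 6 passed (2 up, 4 down; median 0.00), with a median of -0.04 for all genes. All 8 pluripotency markers fell here too and 6 of 9 measured fibroblast markers rose, though the fibroblast sum reached only 835 and 1179 on day 8, against 85 to 207 on day 0. Pdk1 had 211 and 100 in null cells of day 8, against 1327, 1944 and 2059 on day 0 (-3.55 ± 0.39, adjusted p = 3.96e-07). Pfkfb3 had 323 and 928, against 36, 71 and 50 (3.34 ± 0.43, adjusted p = 3.43e-06). Neither gene's days overlapped, and both changes passed whichever array was left out. Hk2 fell to 884 and 1205, against 3046, 2511 and 2213 (-1.31, limma adjusted p = 4.54e-06). Pfkp fell to 147 and 81, against 790, 619 and 601 (-2.56, adjusted p = 0.000387). Hif1a rose to 1781 and 2169, against 1290, 1248 and 1188 (0.66, adjusted p = 5.56e-05), and Slc2a3 to 15300 and 17745, against 11736, 11757 and 10274 (0.55, adjusted p = 0.00115).

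Egln3 had 88 and 9 in null cells of day 8, against 348, 743 and 521 on day 0, a change of -3.90 ± 0.76 (adjusted p = 0.000391). The 2 day 8 arrays disagreed by far more than the day 0 arrays, yet both were lower. With null arrays below 500 alone, 1 array is left on day 0. The day 8 change was then -3.35 for Egln3, -3.15 for Pdk1, 3.79 for Pfkfb3, 1.31 for P4ha2 and 0.49 for Slc2a3. Bnip3 had 311 and 78, against 1538, 2152 and 1506 (-3.41 ± 1.2, adjusted p = 0.0319), and its call was lost without null day 8 replicate 2 (adjusted p = 0.318) and without any of the day 0 arrays. In Fl/Fl cells the Bnip3 values were 203 and 202 on day 8, against 4894 and 604 on day 0, and the change of -3.06 did not pass (adjusted p = 0.0793).

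P4ha2 had 180 and 393 in null cells of day 8, against 105, 69 and 40 (1.94 ± 0.52, adjusted p = 0.00632). Slc2a1, the widely expressed glucose transporter, had 13393 and 24964, against 7276, 10209 and 9117 (1.06 ± 0.22, adjusted p = 0.000602). Eno2 had 6 and 59, against 6 on each day 0 array, so its call (1.33 ± 0.41, adjusted p = 0.0158) rested on replicate 2 alone, and without it the change was 0.00. The same array decided Slc2a1 (adjusted p = 0.0630 without it), P4ha2 (0.155), Ankrd37 (0.0690), Pfkl (0.489) and Pkm (0.347), and without it 9 members passed. Pfkl and Pkm were also lost without null day 0 replicate 1. For these fits, too, the share of all genes is not given. Without day 8 replicate 1 instead, Epas1 was lost (0.121) and 17 members passed.

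On day 4, 6 of 33 members passed in null cells, Pfkfb3 and Hif1a upward and Hk1, Hk2, Pfkp and Epas1 downward, against 14.7% of all genes (6.36% upward, 8.34% downward). The calls of Hk1 and Hk2 were lost without null day 0 replicate 1 (adjusted p = 0.126 and 0.176) and without null day 4 replicate 3, and that of Hk2 also without null day 4 replicate 4 or 5. Epas1 fell to 11, 9, 46, 36 and 29, against 681, 378 and 463 on day 0 (-4.23 ± 0.45, adjusted p = 6.59e-07), the largest log2 fall of the day among the members. Pfkp had 253, 150, 94, 77 and 80, against 790, 619 and 601 (-2.46 ± 0.40, adjusted p = 0.000168). Both genes lay below every day 0 array. With the null arrays above 500 alone 12 members passed, against 2878 of all 18194 genes. With those below 500 alone 1 null array is left on day 0, so only the changes are given. They were 1.9 for Pfkfb3, 0.31 for Hif1a, -1.48 for Hk1, -0.39 for Hk2, -2 for Pfkp and -5.62 for Epas1.

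The courses of the 2 genotypes were then set against each other. The difference between the day 8 changes of null and Fl/Fl cells passed for 0 of 33 members by limma's test, with 1 at an unadjusted p under 0.05, against 1.09% of all genes (0.407% higher, 0.687% lower). Without null day 8 replicate 2, 1 member passed. For Pdk1 that difference was 0.37 (adjusted p = 0.970) and for Pfkfb3 0.97 (adjusted p = 0.698), and a p that misses the threshold does not show that the courses were alike. The F test, which takes all 5 days together and asks if null minus Fl/Fl stayed the same, passed for 3 of 33 members, Slc2a3, Ldhb and Hif1a, against 4.94% of all genes. The call of Hif1a (adjusted p = 0.0476) was lost in 23 of the 30 fits that left out 1 array, and 5 members passed without either null array of day 8.

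Slc2a3, the high-affinity glucose transporter of ES cells and neurons, was lower in null cells on days 2 and 4. On day 0 it had 11736, 11757 and 10274 in null cells, against 16740 and 14203 in Fl/Fl cells. On day 2 the null arrays read 7841, 6357, 7887, 7771 and 7527, against 11731 and 11366. On day 4 they read 13349, 14610, 11939, 10909 and 10887, against 24129 and 20566. The genotypes did not overlap on these 3 days, and the log2 differences were -0.46 ± 0.12 (adjusted p = 0.0711), -0.63 ± 0.11 (adjusted p = 0.00701) and -0.86 ± 0.11 (adjusted p = 2.46e-05). On day 6 the null values, 17638 to 21351, enclosed the Fl/Fl values of 19413 and 19376, and on day 8 they were 15300 and 17745, against 14393 and 14973. The F test gave an adjusted p of 0.00182. Of the members, Slc2a3 alone passed on day 2, where 0.621% of all genes did (0.104% higher, 0.517% lower); the day 2 call was lost without Fl/Fl day 2 replicate 1 (adjusted p = 0.0930).

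On day 4, 6 of 33 members differed between null and Fl/Fl cells, 2 higher (Pfkm and Pdk1) and 4 lower (Slc2a3, Pfkfb3, Hif1a and P4ha1), against 11.6% of all genes (4.18% higher, 7.43% lower). Among the called genes 36% were higher, and this share was 48.5% after quantile normalization and 55.5% with arrays scaled to their 75th percentile. Pfkfb3 had 128, 166, 171, 183 and 161 in null cells, against 634 and 691 in Fl/Fl cells. Every null array was more than 3-fold below both Fl/Fl arrays, and the difference was -2.02 ± 0.40 (adjusted p = 0.00168). By day 6 it had 208, 366, 681, 558 and 552 in null cells, against 421 and 520, and the genotypes overlapped. Pdk1 had 1298, 1725, 1076, 977 and 1281 on day 4 in null cells, against 393 and 443 (1.57 ± 0.36, adjusted p = 0.00535). Pfkm, the muscle-type phosphofructokinase, had 463, 383, 310, 288 and 271, against 147 and 171 (1.07 ± 0.28, adjusted p = 0.0151). In both genes all null arrays lay above all Fl/Fl arrays. P4ha1, like P4ha2 a subunit of an enzyme that hydroxylates collagen prolines, had 181, 176, 85, 44 and 57, against 301 and 360 (-1.78 ± 0.52, adjusted p = 0.0287).

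Without Fl/Fl day 4 replicate 1, 2 members passed on day 4, as the calls were lost of Pdk1 (adjusted p = 0.0857), Pfkm (0.178), Hif1a (0.116) and P4ha1. Leaving out Fl/Fl day 4 replicate 2 ended those of Pfkm, Hif1a and P4ha1, and P4ha1 was also lost without any 1 of the 3 null arrays above 500 of that day. Only Slc2a3 and Pfkfb3 passed whichever array was left out. On the same day 2 of 8 pluripotency markers were higher in null cells, 2 of 6 measured mesoderm markers and 3 of 6 trophoblast markers were lower, and the mesoderm sum was 240 to 822 in null cells, against 3535 and 3741 in Fl/Fl cells; the part of this in the gene differences was not tested.

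On day 6, 8 of 33 members differed, 4 higher (Pfkl, Ldhb, Slc16a3 and Pdk1) and 4 lower (Eno2, Hif1a, Epas1 and Ndrg1), against 9.93% of all genes (3.47% higher, 6.46% lower). The share of higher calls was 34.9%, against 48.3% and 49.7% under those scalings. Pdk1 had 563, 500, 250, 326 and 329 in null cells, against 126 and 84 in Fl/Fl cells (1.83 ± 0.36, adjusted p = 0.00185). Ldhb had 3096, 3442, 3018, 3263 and 3125, against 1370 and 1671 (1.07 ± 0.21, adjusted p = 0.00221). The null arrays of both genes lay well above the Fl/Fl arrays, in both sets of null arrays. Slc16a3 had 3065, 1477, 1159, 1467 and 1543, against 494 and 340 (1.99 ± 0.58, adjusted p = 0.0306), and Pfkl, the liver-type phosphofructokinase, had 2399, 1764, 988, 1036 and 1024, against 619 and 534 (1.22 ± 0.36, adjusted p = 0.0308). For Ldhb the order was different on day 4, with 2700, 2688, 1658, 1584 and 1493 in null cells, against 2876 and 2936, and the F test gave an adjusted p of 0.00662.

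On their brightest probe sets, both HIF alpha subunits were lower in null cells on day 6. Hif1a had 1866, 1963, 1762, 1672 and 1839, against 2883 and 2605 (-0.59 ± 0.10, adjusted p = 0.000497). Epas1 had 15, 61, 13, 16 and 17, against 109 and 102 (-2.16 ± 0.51, adjusted p = 0.00849). The null arrays had stayed low after day 4, when the Fl/Fl arrays read 20 and 15. Other probe sets did not all follow. Those of Hif1a differed by 0.12, -0.78 and -0.08 on day 6 (mean intensities 273.2, 159.9 and 4.0). The other probe set of Epas1 differed by 0.01 (mean intensity 29.6). Eno2 read 6 on all 5 null arrays, against 24 and 32 (-1.67 ± 0.38, adjusted p = 0.00615). Ndrg1, a stress-responsive HIF target, had 96, 97, 51, 56 and 64, against 134 and 158 (-1.01 ± 0.32, adjusted p = 0.0492), and its call was lost in 20 of the fits that left out 1 array.

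Of the day 6 calls, only Hif1a passed whichever array was left out. Its call was lost with the mean over probe sets and with the null arrays below 500 alone. Without Fl/Fl day 6 replicate 2, only Hif1a and Ldhb passed, with Pdk1 at an adjusted p of 0.0812, and without Fl/Fl day 6 replicate 1 the calls of Ldhb (0.0664), Epas1, Pfkl, Slc16a3 and Ndrg1 were lost, which left 3. Pfkl and Slc16a3 also needed null day 6 replicate 1, and Pfkl null day 6 replicate 2. Markers of cell types moved on that day as well: 4 of 8 pluripotency markers were higher and 1 lower in null cells, 5 of 9 measured fibroblast markers were lower, and the fibroblast sum was 174 to 663 in null cells, against 2299 and 2719 in Fl/Fl cells, with Lum at 5 or 6 on the arrays of both genotypes; the part of these in the differences was not tested.

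**Figure D3:**
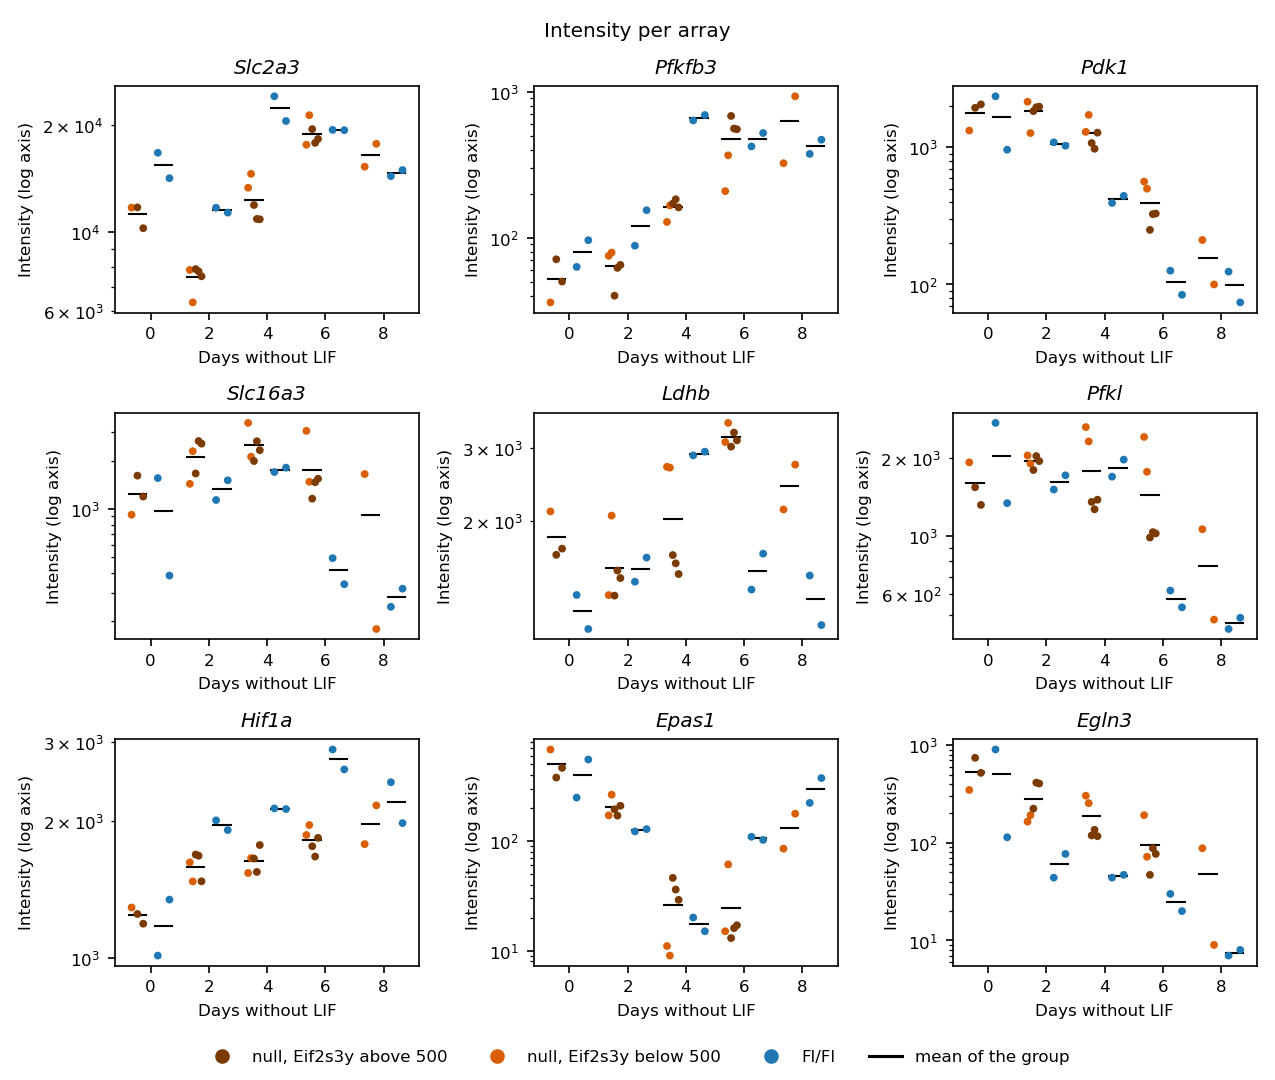
Intensity per array (log axis) over the days without LIF for 9 members, null left of Fl/Fl at each day, with null arrays coloured by their Eif2s3y level and bars at the group mean. Pfkfb3 is lower in null cells on day 4 and level on day 6, Pdk1 is higher in null cells on days 4 and 6, and Pfkl shows the split between the null sets on those days.

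On days 0 and 8, 0 of 33 members passed between the genotypes by limma's test, with 4 and 3 at an unadjusted p under 0.05, against 1.18% of all genes on day 0 (0.247% higher, 0.929% lower) and 2.51% on day 8 (0.709% higher, 1.8% lower). Among members on day 0, Slc2a3 came closest to passing. On day 8 Ldhb had 2133 and 2733 in null cells, against 1481 and 1126 (0.90 ± 0.25, adjusted p = 0.0624). Without null day 8 replicate 2 the null group of that day holds 1 array, so that fit is not read here.

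Averaged over the 5 days, 12 of 33 members differed between null and Fl/Fl cells, 5 higher and 7 lower, against 23.2% of all genes (7.76% higher, 15.5% lower). The share of higher calls among all called genes was 33.4%, against 54.3% after quantile normalization and 63.5% with 75th percentile scaling, where members passed as 5 higher and 6 lower and as 6 and 6. Among the 20 glycolysis genes 7 passed (4 higher, 3 lower; median -0.02), and among the 13 HIF genes 5 passed (1 higher, 4 lower; median -0.27), with a median of 0.00 for all genes. Pdk1 (0.99 ± 0.17, adjusted p = 0.000246), Slc16a3 (0.94 ± 0.27, adjusted p = 0.0159), Pfkm (0.42 ± 0.13, adjusted p = 0.0248) and Ldhb (0.40 ± 0.10, adjusted p = 0.00695) were the glycolysis genes that were higher in null cells. Slc2a3 (-0.36 ± 0.05, adjusted p = 4.85e-05), Eno2 (-0.67 ± 0.18, adjusted p = 0.00929) and Pfkfb3 (-0.63 ± 0.19, adjusted p = 0.0180) were lower. The enzymes in between, among them Aldoa, Tpi1, Pgam1, Pkm and Ldha, had differences from -0.08 to 0.11 and did not pass. Nor did Slc2a1, Hk1, Hk2, Pfkl, Pfkp, Aldoc, Slc16a1 and Pfkfb4, of which Hk1 came nearest (-0.755 ± 0.27, adjusted p = 0.0508). The brightest probe set of Pfkp differed by -0.24, while its others differed by 0.77 and -0.2 (mean intensities 84.2 and 54.7). Fibroblast markers were lower in null cells in 5 of 9, with the fibroblast sum at 85 to 1179 on the null arrays and 211 to 14996 on the Fl/Fl arrays, and their part was not tested.

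Egln3 was the HIF gene that was higher in null cells (1.56 ± 0.33, adjusted p = 0.00183). On day 2 it had 165, 192, 224, 414 and 405 in null cells, against 44 and 77. On day 4 it had 304, 255, 119, 136 and 117, against 44 and 47, and on day 6 192, 72, 47, 88 and 77, against 30 and 20. On each of these days every null array was above every Fl/Fl array. The null arrays below 500 were lower than those above 500 on day 2 and higher on day 4, and the sets overlapped on day 6. On day 0 the null values of 348, 743 and 521 lay between the Fl/Fl values of 904 and 114.

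Hif1a (-0.27 ± 0.05, adjusted p = 0.000310), Ndrg1 (-0.67 ± 0.15, adjusted p = 0.00313), P4ha1 (-0.95 ± 0.25, adjusted p = 0.00764) and P4ha2 (-0.65 ± 0.23, adjusted p = 0.0438) were lower. P4ha1 on day 8 had 145 and 292 in null cells, against 429 and 452, and P4ha2 180 and 393, against 446 and 408, so all null arrays were below. On day 6 P4ha2 had 109, 72, 86, 133 and 149 in null cells, against 224 and 216. Ndrg1 on day 4 had 84, 69, 52, 52 and 56, against 90 and 121. Hif1a on day 2 had 1623, 1473, 1689, 1679 and 1474, against 2010 and 1913, and on day 4 1538, 1659, 1655, 1546 and 1773, against 2136 and 2129. The null and Fl/Fl arrays did not overlap in these values. Of the 9 measured HIF targets, 3 passed, all lower, and the rest did not: Bnip3 differed by 0.36 ± 0.52, Vegfa by -0.36 ± 0.28, Ddit4, an inhibitor of growth signalling, by -0.36 ± 0.21, and Ankrd37 by 0.01 ± 0.23, with Adm and Car9 near the floor. Epas1 (-0.40 ± 0.24) and Egln1, the main oxygen sensor (-0.27 ± 0.21), did not pass either. Their other probe sets read otherwise, at 0.60 for Epas1 (mean intensity 29.6) and -0.77 for Egln1 (106.3). That of Vegfa differed by 0.14 (25.2).

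**Figure D4:**
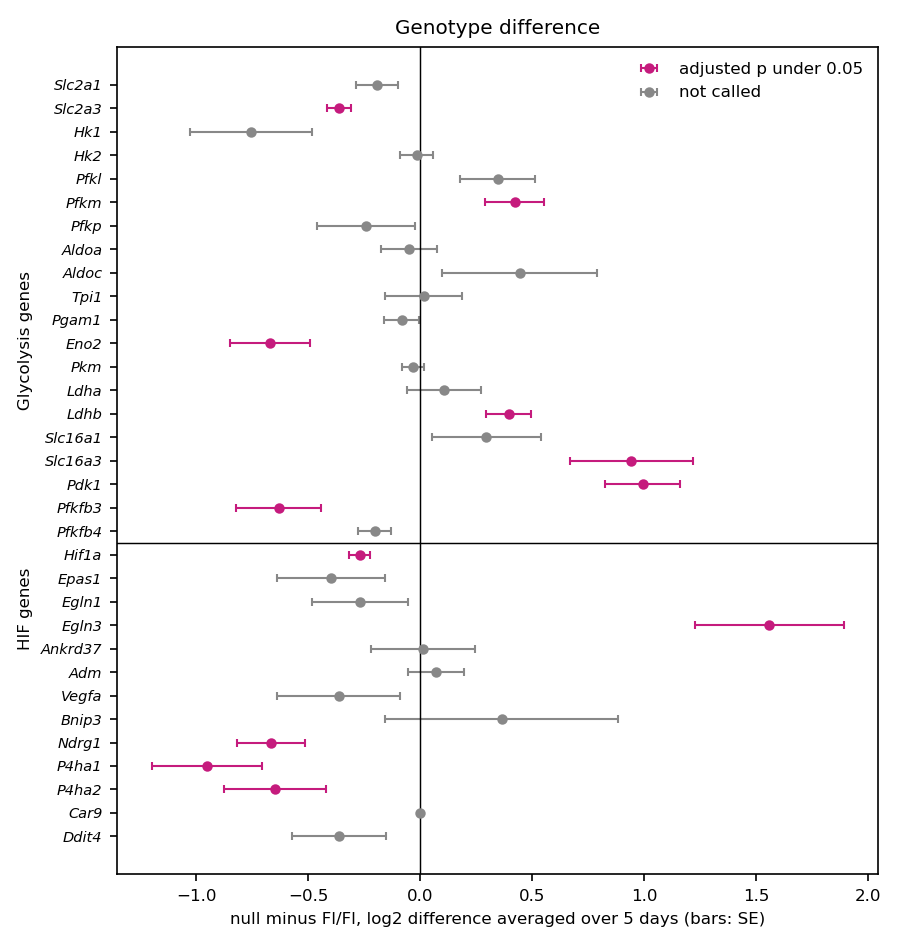
Null minus Fl/Fl difference averaged over the 5 days for each member (log2 change, bars SE), glycolysis genes above the line and HIF genes below it. Magenta points have an adjusted p under 0.05. Egln3, Pdk1 and Slc16a3 lie farthest right and P4ha1 farthest left among the called genes, while the bar of Bnip3 crosses 0.

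Overlap between the genotypes was also counted day by day, without a test. All null arrays lay above all Fl/Fl arrays in 2 of 33 members on day 0 (Ldhb and Slc16a1), 6 on day 2, 4 on day 4, 10 on day 6 and 4 on day 8, against 5.44%, 4.51%, 10.4%, 10.2% and 8.48% of all genes. They lay below in 3, 4, 9, 9 and 9 members, against 9.9%, 8.39%, 14.3%, 14.7% and 16.8%. Among the 20 glycolysis genes of day 6, 9 lay above, with Hk2, Pfkm, Aldoc, Pkm and Ldha beside the 4 called ones, and 3 below. Among the 13 HIF genes of that day, Egln3 lay above and 6 lay below: Hif1a, Epas1, Ndrg1, P4ha1, P4ha2 and Ddit4. Day 8 placed 7 HIF genes below and again Egln3 above, with 2 arrays in each genotype, where groups part easily. The 7 include Adm, at 12 and 8 against 13 on both Fl/Fl arrays. The members below on that day also include Pfkfb4, at 9 on both null arrays against 10, and both genes lie near the floor.

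The averaged calls of Slc2a3, Eno2, Ldhb, Pdk1, Hif1a, Egln3, Ndrg1 and P4ha1 passed whichever array was left out. P4ha2 was lost in 18 such fits, Pfkfb3 in 2 (without null day 8 replicate 1, adjusted p = 0.0637, and without Fl/Fl day 2 replicate 2), Pfkm in 3 (without null day 8 replicate 1, Fl/Fl day 2 replicate 1 or Fl/Fl day 4 replicate 1, at most 0.0557), and Slc16a3 without Fl/Fl day 0 replicate 2 (0.0514). When the mean over all probe sets of a gene replaced the brightest one, Slc2a3, Hif1a and Pfkfb3 were no longer called. The 4 probe sets of Slc2a3 differed by -0.15 to -0.38, in 1 direction, while Pfkfb3 had -0.63 on its brightest probe set and 0.11 on the other, whose mean intensity was 16.

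The comparisons depended on which null arrays were used. With the 11 null arrays above 500, which cover days 0 to 6, 16 of 33 members passed on day 4 (3 higher, 13 lower), 15 on day 6 (6 higher, 9 lower) and 19 in the average (5 higher, 14 lower). The shares of all genes in those fits were 24.5%, 23.1% and 36.1%. Members that passed there and not with all arrays included Ddit4, at -1.69 on day 4 (adjusted p = 0.00105) and -1.09 on day 6 (adjusted p = 0.0192), Hk1, the widely expressed hexokinase, at -1.12 and -1.40 (adjusted p = 0.0317 and 0.00981), and Ldha at -0.41 on day 4 (adjusted p = 0.00171). With the 9 null arrays below 500, 3 members passed on day 4, 4 on day 6 and 7 in the average, against 5.08%, 1.69% and 10.9% of all genes. Pdk1 was higher in the average with either set, at 1.04 (adjusted p = 0.000168) above 500 and 1.04 (adjusted p = 0.0186) below, and Slc2a3 lower with either, at -0.53 (adjusted p = 5.65e-07) and -0.32 (adjusted p = 0.0124). Pfkm, Pfkfb3 and Hif1a also passed in the average with either set, with Pfkm at 0.30 (adjusted p = 0.0283) above 500 and 0.75 (adjusted p = 1.94e-05) below. Ldhb was called below 500 (0.56, adjusted p = 0.00860) and not above (0.14, adjusted p = 0.1). The other way round, Egln3 (1.52 and 1.57), Slc16a3 (0.94 and 0.93), Eno2 (-0.57 and -0.68), Ndrg1 (-0.73 and -0.49) and P4ha1 (-1.26 and -0.52) were called above 500 and not below, where their adjusted p was 0.0635, 0.214, 0.196, 0.157 and 0.120. P4ha2 was called with neither. Ldhb on day 4 differed by -0.88 with the arrays above 500 (adjusted p = 0.000113) and did not pass with those below.

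Other genes of the same pathways were taken from separate lists, to be read against the 23.2% of all genes that passed in the average (7.76% higher, 15.5% lower). Of 24 measured further glycolysis genes, 3 differed in the average: Gpd2, which passes electrons of glycolysis to the mitochondria, was higher (0.35 ± 0.08, adjusted p = 0.00319), and Tigar, which lowers the activator made by Pfkfb3 (-0.64 ± 0.16, adjusted p = 0.00651), and Eno3, the muscle enolase (-0.40 ± 0.12, adjusted p = 0.0190), were lower. Of 13 further HIF pathway genes 2 differed: Arnt, the beta subunit of HIF, was higher (0.25 ± 0.07, adjusted p = 0.0133), and Cited2, which competes with HIF for its coactivator, was lower (-1.08 ± 0.13, adjusted p = 4.78e-06). Of 32 further HIF targets 12 differed, 3 higher and 9 lower, with a median of -0.07. The 4 with the smallest adjusted p were Plod1, a collagen lysyl hydroxylase (-0.99 ± 0.15), Plin2, a coat protein of lipid droplets (-0.94 ± 0.18), the repressor Bhlhe40 (-1.11 ± 0.23) and Lox, which cross-links collagen (-1.54 ± 0.32), all lower in null cells.

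Of 11 measured genes of pyruvate dehydrogenase and its regulators, Pdha1, the catalytic alpha subunit, was called, lower in null cells (-0.27 ± 0.07, adjusted p = 0.00605). Of 17 genes of the tricarboxylic acid cycle 6 differed, 3 in each direction and by at most 0.52. The citrate synthase gene Cs was lower (-0.285 ± 0.085) and Idh3g and Mdh1 were higher (0.27 ± 0.08 and 0.17 ± 0.06), while Sdhc, a succinate dehydrogenase subunit, was lower (-0.185 ± 0.06). Of 6 genes of the pentose phosphate pathway Pgd was called, higher in null cells (0.26 ± 0.06, adjusted p = 0.00398).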

How the data were processed

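Total RNA of 30 samples was labelled with biotin and hybridised to Affymetrix arrays, per the labels' protocols. The deposited values are linear intensities per probe set in whole numbers; the way the authors summarised and normalized these intensities was not given in any source used here. Of 45101 probe sets 34958 name 1 gene in the platform annotation, and the brightest of these by mean stood for each of 18194 genes; no chromosome positions were used beyond RefSeq promoters of GRCm38.p6. No further normalization was applied, and log2(intensity + 4) was fitted with limma 3.58.1 in R 4.3.3 as 10 group means over all arrays (20 residual degrees of freedom), with moderated tests, Benjamini-Hochberg adjustment over all genes and a threshold of 0.05. A fold on this scale understates the change of dim genes, and the number of arrays limits the precision. The 36 members, the other lists and the tests were chosen with earlier results of these data known, so a pattern seen before is not supported anew. Members that passed between the genotypes or over time are named. Values by array are given for many of them, and for the 3 largest rises and falls by day 8 in each genotype. Other lists name up to 4 genes with the smallest adjusted p. On simulated arrays with 18194 genes, the fit was tested before use. Alternatives were pseudocounts of 1 and 16, 2 other normalizations, leaving out the dimmest 40% of genes, the mean over probe sets, a robust prior with trend, the replicate block, each array left out, and the null arrays on either side of an Eif2s3y intensity of 500. Replicate numbers were not taken as pairs, and the labels do not say whether they are. Deviations of same-numbered arrays correlated at -0.199 to 0.375 across genotypes (10 of 50 pairs over 0.1) and at -0.348 to 0.511 within them (27 of 52 pairs). On null days 2, 4 and 6, replicates 1 and 2 had Eif2s3y below 500 and replicates 3 to 5 above it, so the numbers are not without structure.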

Additional observations from a re-analysis of the deposited data

Results flagged for a closer look

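Of 99 groups of 5 arrays (the 33 members on null days 2, 4 and 6), 6 held an array far from the others. Groups with the same value on all arrays, as in Car9, could not be tested. Chance flags about 1 in 20 groups. Slc2a3 read 6357 on null day 2 replicate 2, against 7527 to 7887 on the other 4 arrays. Hk1 read 57 on null day 2 replicate 3, against 152 to 175. Hk2 read 1710 on null day 6 replicate 1, and Epas1 61 on null day 6 replicate 2, where the other arrays had 13 to 17. P4ha1 read 86 on null day 2 replicate 2, against 125 to 131, and Eno2 read 5 on that array, a step of 1 at the floor. The genotype difference varied between days for Slc2a3 (F test, adjusted p = 0.00182), Ldhb (adjusted p = 0.00662) and Hif1a (adjusted p = 0.0476).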

How the results depend on the processing

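With 1 array left out at a time, the members that passed between null and Fl/Fl cells numbered 0 to 1 on day 0, 0 to 1 on day 2, 2 to 8 on day 4, 2 to 10 on day 6, 0 to 4 on day 8 and 9 to 16 in the average over days. For the change from day 0, they numbered 4 to 8 in null cells and 6 to 12 in Fl/Fl cells by day 4, and 9 to 17 in null cells and 11 to 17 in Fl/Fl cells by day 8. The difference between the day 8 changes gave 0 to 1, and the F test 2 to 5. Over the 74 calls of members, these fits kept the call in 2077 cases and lost it in 143, and the other settings kept it in 662 and lost it in 59; 0 were reversed.

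With null arrays above 500 alone, the members that passed numbered 6 on day 0 (0 with all arrays), 4 on day 2 (1), 16 on day 4 (6), 15 on day 6 (8), 19 in the average (12), 12 for the null change by day 4 (6) and 13 by the F test (3); no such null array exists for day 8. With null arrays below 500 alone they numbered 1, 0, 3, 4, 7, 1 and 1, and 1 for the difference between the day 8 changes (0). The mean over probe sets gave 0 on day 2, 3 on day 4, 1 on day 8 (0) and 1 for that difference. Scaling to the 75th percentile gave 0 on day 2 and 1 on day 8, and quantile normalization 1 on day 8. The 75th percentile scaling moved the median of all genes by 0.126 on day 4 and 0.103 on day 6 (log2), and 0 called members changed sign under either scaling. The labels do not say whether replicate numbers mark pairs, and the main fit did not take them as such. The replicate block is given here only: it gave 0 members on day 2, 1 on day 8 and 5 by the F test, and 61 genes of all on day 2 (113 without it). With the block, the calls of P4ha1 were lost in the average (adjusted p = 0.103) and on day 4 (0.108), as were those of Slc2a3 on day 2, Ndrg1 on day 6 and Hif1a by the F test. The causes of these shifts were not tested, and fewer arrays enter the fits by Eif2s3y.

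Over all genes, the counts for days 0, 2, 4 and 6 and the average were 214, 113, 2112, 1806 and 4224, against 2601, 1902, 4457, 4197 and 6574 with null arrays above 500 alone and 364, 53, 925, 308 and 1990 with those below. For day 8 the count was 457, against 270 below 500; for the Fl/Fl change by day 4 it was 3372, against 5384 above 500; for the difference of changes it was 199, against 385 below; and for the F test it was 899, against 3336 above and 563 below. Leaving out the dimmest 40% of genes gave 113, 299 and 92 for day 0, day 8 and the difference of changes, and the 75th percentile scaling gave 113 for day 0. With 2 Fl/Fl arrays a day, single arrays decided many calls, and values near the floor understate folds.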

Other observations

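Further HIF targets changed over the course in both genotypes: of 32 measured, 15 passed between day 8 and day 0 in null cells (10 up, 5 down) and 15 in Fl/Fl cells (8 up, 7 down), against 33.4% and 33.6% of all genes. The motif ACGTG was present in 9 of 14 promoters (64.3%) of members that were at least 2-fold higher on Fl/Fl day 0 replicate 1, and in 11 of 16 (68.8%) of the other measured members.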
